A study of Mus musculus with 8 samples.

Results

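The mitochondrial ribosomal protein genes are the nuclear genes whose symbols read Mrpl (large subunit) or Mrps (small subunit) with a number. The count table of the spinal cord series held 77 such genes among 47643 annotated genes, and all 77 reached the minimum of 10 expected counts in at least 4 libraries. By symbol, 48 belong to the large and 29 to the small subunit, and they lie on 17 chromosomes. The libraries were made from the spinal cord of C57BL/6 mice of 2 to 10 months, 4 labelled homozygous and 4 labelled heterozygous at Arf1, the gene of a small GTPase that recruits coat proteins to Golgi membranes. The labels give tamoxifen at 100 mg/kg into the peritoneum as the means of deleting Arf1. By their genotype labels both groups carry the alteration, and no untreated or wild-type mice were analysed here. What drives the recombinase and the exact allele were not given in the labels or files used here. The same tamoxifen dose is recorded for both groups, so the labels show no difference in treatment. None of them states outright that the heterozygous mice were injected. A difference in treatment, if there was one, could not be told apart from one in genotype. Each library title has its own number, taken as a separate mouse, but no label states this outright, so the p-values measure the spread between these libraries.

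Mitochondrial ribosomes translate the few messenger RNAs encoded in mitochondrial DNA, all of which specify subunits of the respiratory chain and ATP synthase. Every protein of this ribosome is encoded in the nucleus, made in the cytosol and imported. Lower symbol numbers (up to 36 in the large and 21 in the small subunit) mostly mark proteins with a bacterial counterpart, and higher numbers proteins that mitochondria acquired. Mrpl55 encodes a large subunit protein of the acquired kind. Its gene is a neighbour of Arf1. Mrps36 carries a ribosomal symbol, although its product is now placed in the alpha-ketoglutarate dehydrogenase complex.

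The libraries held 26321522 to 37879426 expected counts each. The library labelled homozygous replicate 1 went against its label, with 307.0 CPM (counts scaled to library size) of Arf1, against 22.51, 22.85 and 39.86 CPM in homozygous replicates 2 to 4 and 296.3 to 334.1 CPM in the heterozygous libraries. Each comparison is therefore given for the 8 libraries as labelled and for the 7 without that library. Markers of other cell types were found beside those of the spinal cord. The 6 spinal cord Hox markers summed to 26.42 to 62.11 CPM in homozygous and 38.76 to 63.12 CPM in heterozygous libraries. All 5 Schwann cell markers were detected, with sums of 5.709 to 41.98 CPM in homozygous and 87.88 to 420.2 CPM in heterozygous libraries, and all 5 markers of meningeal fibroblasts, with 24.23 to 41.82 CPM in homozygous and 46.94 to 109.5 CPM in heterozygous libraries. Neither of these sums overlapped between the groups. The 5 skeletal muscle markers summed to 10.76 to 54.43 CPM in homozygous and 6.414 to 431.7 CPM in heterozygous libraries. The sums of the marker lists of neurons, motor neurons, oligodendrocytes, astrocytes, microglia, dorsal root ganglion neurons and red blood cells overlapped between the groups. For microglia this held only through the library labelled homozygous replicate 1. Without it the microglia sums were 129.2 to 157.5 CPM in homozygous and 165.0 to 203.5 CPM in heterozygous libraries. The part of any of these cells in the results was not tested. In homozygous replicate 3, 2.44% of bases were ribosomal, against 0.10% to 0.34% in the other libraries.

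Mrpl55 was the member that differed most between the groups. Its level was 14.44, 2.866, 3.465 and 3.523 CPM in homozygous replicates 1 to 4, and 13.04, 12.63, 14.49 and 12.07 CPM in heterozygous replicates 1 to 4. Homozygous replicates 2 to 4 lay below every heterozygous library, while the library labelled homozygous replicate 1 lay within the heterozygous range, as it did for Arf1. Behind these levels stood 553, 77, 86 and 108 expected counts in the homozygous and 488, 380, 529 and 461 in the heterozygous libraries.

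With the 8 libraries as labelled, Mrpl55 had a log2 fold change of -1.08 (SE 0.517), homozygous over heterozygous, which missed the threshold in edgeR (adjusted p = 0.335). Over the 7 libraries, Mrpl55 fell to 3.285 ± 0.364 CPM in homozygous libraries (SD, n = 3), against 13.06 ± 1.04 CPM in heterozygous libraries (SD, n = 4), which is 25.15% of the heterozygous level. The log2 fold change was then -1.99 (SE 0.124, edgeR adjusted p = 0.000385), and Mrpl55 had the smallest p of the 16560 genes tested. The library left out held 14.44 CPM of Mrpl55, and it was left out with earlier results of these data known. The call of Mrpl55 is therefore not independent of the exclusion. In the authors' deposited table of 185 genes, computed over 6 libraries that include neither the library labelled homozygous replicate 1 nor heterozygous replicate 1, Mrpl55 had a log2 fold change of -2.06 and stood second by false discovery rate (6.87e-28), after Arf1 at -3.50. It was the only one of the 77 genes in that table, whose highest false discovery rate was 0.0936. In bulk RNA, fewer cells that express a gene and less of its RNA per cell cannot be told apart.

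**Figure D1:**
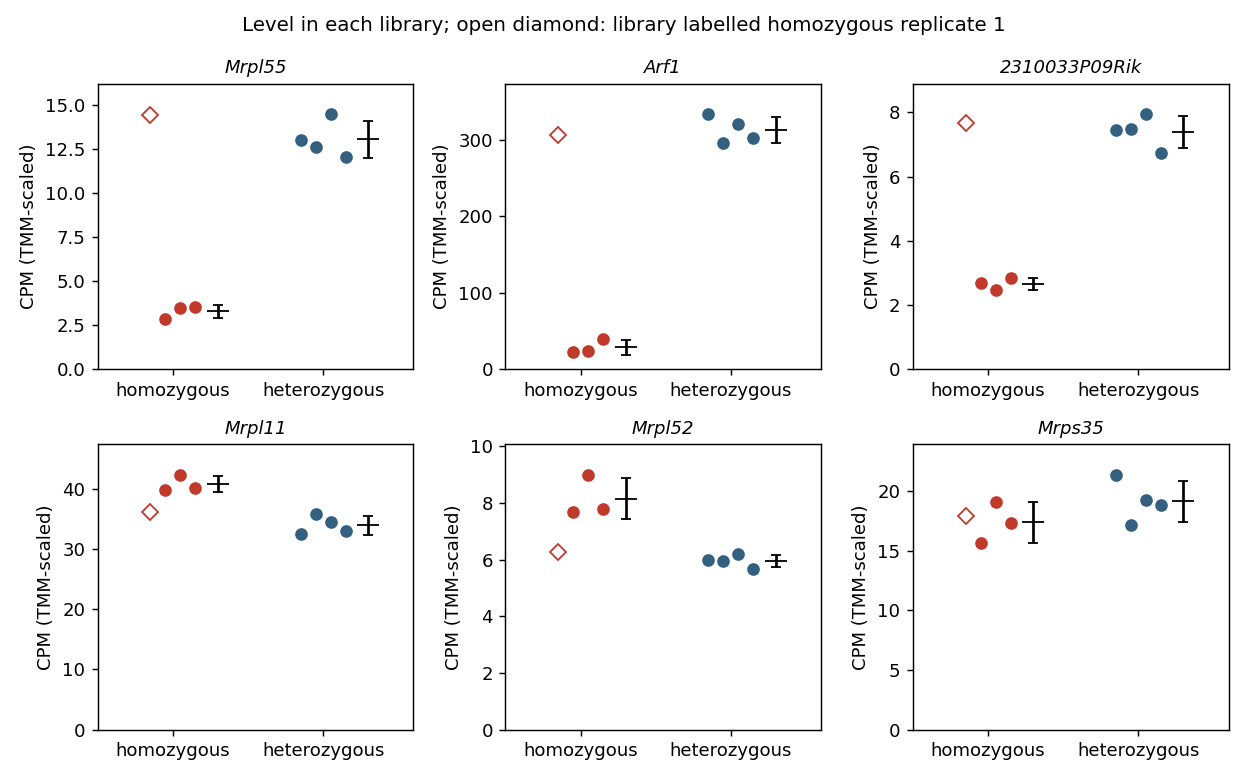
Level of 6 genes in each library, in TMM-scaled CPM on linear axes that start at 0, homozygous left and heterozygous right. Points are single libraries, the open diamond is the library labelled homozygous replicate 1, and the bar beside each group is the mean ± SD of homozygous replicates 2 to 4 (n = 3) and of the heterozygous libraries (n = 4). For Mrpl55, Arf1 and 2310033P09Rik the diamond sits with the heterozygous points, and homozygous replicates 2 to 4 sit at 25.15%, 9.056% and 35.91% of the heterozygous mean.

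In TPM, which scales reads to transcript length as well as to the library, Mrpl55 was among the 3 lowest of the family in homozygous replicates 2 to 4, and stood below the family's median in the other 5 libraries. It had 38.64, 6.67, 7.66 and 8.86 TPM in homozygous replicates 1 to 4, and 34.98, 34.27, 38.39 and 35.07 TPM in heterozygous replicates 1 to 4. Counted from the highest of the 77, its rank was 46, 77, 76 and 75 in the homozygous libraries and 52, 53, 51 and 54 in the heterozygous ones. The length that RSEM assigned to Mrpl55, an average over its 5 annotated transcripts weighted by abundance, stayed between 815.5 and 825.8 bases in all 8 libraries.

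The other members kept far closer to their own level. The highest member in TPM over all 8 libraries was Mrpl20, a large subunit protein with a bacterial counterpart, at 156.1 ± 10.3 TPM in homozygous and 159.3 ± 9.89 TPM in heterozygous libraries (SD, n = 4 each). In homozygous and heterozygous libraries, Mrps21 averaged 148.1 and 156.1 TPM, Mrps33 106.8 and 113.2 TPM, Mrpl41 96.94 and 98.03 TPM, and Mrpl30 96.89 and 98.57 TPM. The lowest was Mrpl1, whose bacterial counterpart forms a mobile stalk of the large subunit, at 7.133 ± 0.228 TPM in homozygous and 7.503 ± 0.378 TPM in heterozygous libraries. In homozygous and heterozygous libraries, Mrpl57 averaged 7.378 and 7.817 TPM, Mrpl47 14.11 and 13.87 TPM, and Mrps22 18.86 and 19.52 TPM. Mrpl39, placed between the last pair, had 19.09 to 20.15 CPM in homozygous and 17.93 to 20.25 CPM in heterozygous libraries. In both groups the means of Mrpl1 and Mrpl57 differed by less than the larger SD of the pair, and so did those of Mrpl20 and Mrps21. The 77 means spanned 21.55-fold around a median of 42.69 TPM. By symbol, the medians were 40.63 TPM in the large and 44.97 TPM in the small subunit.

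**Figure D2:**
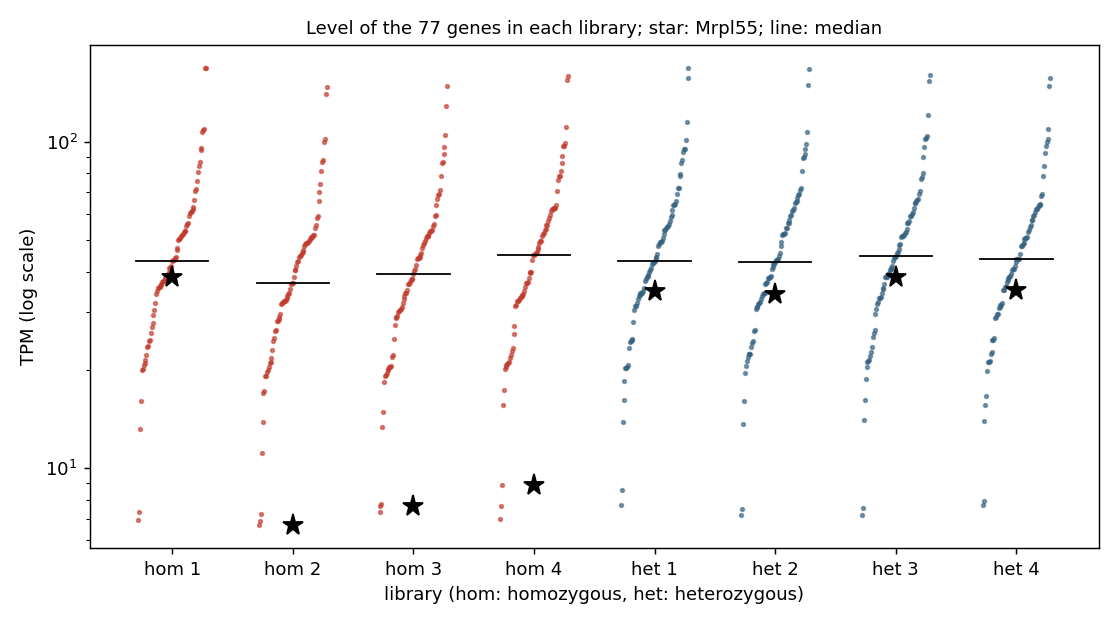
TPM of the 77 genes in each library on a log scale, the 4 homozygous libraries left of the 4 heterozygous ones; each dot is a gene, sorted by level within its library, the line is the median and the star is Mrpl55. The star lies between 34.27 and 38.64 TPM in the heterozygous libraries and the library labelled homozygous replicate 1, and between 6.67 and 8.86 TPM in homozygous replicates 2 to 4.

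The spread of single members over libraries shows the same contrast. Between the lowest and the highest of the 8 libraries Mrpl55 ranged over 2.33 log2 units of CPM, the next widest member, Mrpl52, over 0.66, and the median member over 0.34. Within the 4 heterozygous libraries the SD of the members ran from 0.033 (Mrpl17) to 0.232 (Mrps22) on the log2 CPM scale.

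Of the 76 members other than Mrpl55, none passed the threshold of edgeR in either fit. With 8 libraries edgeR called 0 of the 77 higher and 0 lower, where the background over all 16511 tested genes was 0.0% in each direction. With 7 libraries it called 0 higher and 1 lower, Mrpl55, where the background was 0.55% higher and 0.67% lower of 16560 tested genes. At a raw edgeR p under 0.05 the 8 libraries gave 8 higher members of the 76 and 0 lower ones (10.5% higher, against a background of 7.87% higher and 8.9% lower). The 7 libraries also gave 8 higher and 0 lower (10.5%, against 9.51% higher and 9.94% lower). DESeq2 and limma-voom called 0 of the 77 in either direction with 8 libraries. With 7 libraries limma-voom called Mrpl55 alone, and DESeq2 called Mrpl55 and 2 others, both higher (Mrpl11 and Mrpl52), where its background of higher calls was 2.6% of all tested genes.

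The fold changes of the 76 were small and mostly of the same sign on the CPM scale. With 8 libraries 65 were positive and 11 negative (85.5% positive, against 50.4% of all tested genes), with a median log2 fold change of 0.093 beside 0.002 for all tested genes. Those of the 76 ran from -0.13 (Mrps35) to 0.36 (Mrpl52). With 7 libraries 67 were positive and 9 negative (88.2%, against 50.5%), and the median was 0.106 beside 0.003 for all tested genes. The median rested in part on a pair of libraries. Without heterozygous replicate 4 it was 0.051 with the remainder of the 8 libraries and 0.062 with that of the 7, and without homozygous replicate 3 it was 0.060 and 0.063. Every homozygous library lay above every heterozygous one for 6 of the 76 with 8 libraries (Mrpl11, Mrpl16, Mrpl20, Mrpl52, Mrps21 and Mrps30), which is 7.89% against a background of 4.64%. With 7 libraries this held for 13 of the 76, or 17.1% against 9.84%. In neither fit did any of the 76 lie wholly below the heterozygous libraries, for which the background was 4.66% with 8 libraries and 8.72% with 7.

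The sign of these small shifts depended on the scale: on log2(TPM + 1), 69 of the 76 were negative with 8 libraries (90.8%, against 81.1% of all tested genes) and 70 of the 76 with 7 libraries (92.1%, against 82.2%). The members' median on that scale was -0.087 with 8 libraries and -0.109 with 7, beside -0.144 and -0.175 for all tested genes. Relative to the median of all tested genes the members stood at +0.091 (CPM) and +0.057 (TPM) with 8 libraries, and at +0.103 and +0.066 with 7. With 7 libraries limma on log2(TPM + 1) called 4 members lower, Mrpl55 (-2.08), Mrpl18 (-0.33), Mrpl40 (-0.30) and Mrpl9 (-0.30), where the background was 12.7% of all tested genes. With 8 libraries it called 0, where the background was 0.00606%. The RNAs encoded in mitochondrial DNA made up 19.13%, 23.96%, 23.89% and 20.40% of TPM in homozygous replicates 1 to 4 and 17.13% to 19.19% in the heterozygous libraries. Their part in the members' shift on the TPM scale was not tested.

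Library by library, the median deviation of the 76 members from their heterozygous mean was 0.033, 0.018, 0.181 and 0.108 log2 units of CPM in homozygous replicates 1 to 4, and 0.038, 0.011, 0.068 and -0.113 in heterozygous replicates 1 to 4. Homozygous replicates 3 and 4 were the highest and heterozygous replicate 4 the lowest, and homozygous replicates 1 and 2 lay within the heterozygous range. Homozygous replicate 3 was also the library with the most ribosomal bases, and the lowest share of mapped reads, 92.36% against 98.33% to 98.53% elsewhere. Heterozygous replicate 4 had the highest ratio of 5′ to 3′ coverage, 0.5046 against 0.413 to 0.4407 in the other 7 libraries. The part of these measures in the members' shift was not tested. Summed over the 76 members, the level was 3782, 3284, 3416 and 3766 TPM in homozygous and 3821, 3744, 3863 and 3699 TPM in heterozygous replicates 1 to 4.

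**Figure D3:**
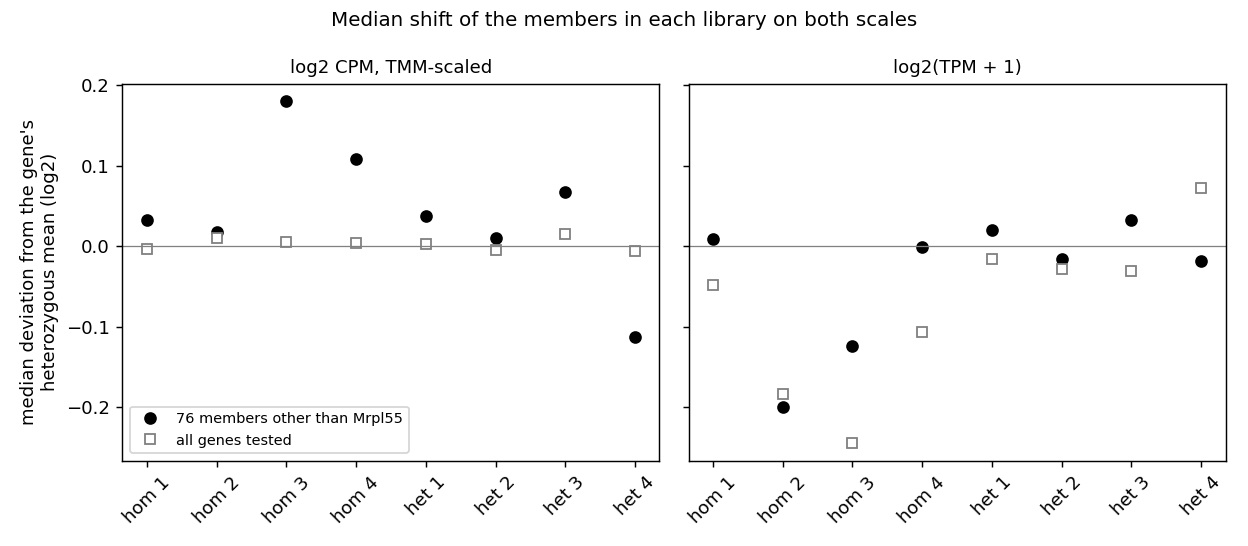
Median deviation, in log2 units, of the 76 members other than Mrpl55 (filled circles) and of all tested genes (open squares) from each gene's heterozygous mean, by library, with homozygous libraries on the left of each panel. On TMM-scaled CPM all tested genes stay near 0 while the members reach 0.181 in homozygous replicate 3; on log2(TPM + 1) all tested genes reach -0.245 in that library and the members -0.200 in homozygous replicate 2.

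Among the large subunit proteins with a bacterial counterpart, Mrpl11, which forms the base of the stalk where translation factors bind, had 36.04, 39.78, 42.27 and 40.16 CPM in homozygous and 32.44, 35.77, 34.47 and 32.91 CPM in heterozygous replicates 1 to 4. All 4 homozygous values were above the heterozygous ones. The log2 fold change was 0.22 with 8 libraries (edgeR adjusted p = 0.154) and 0.27 with 7 (adjusted p = 0.0749), so Mrpl11 did not pass in either fit. Mrpl10, the stalk protein that Mrpl11 borders, had 40.12, 42.95, 49.00 and 43.71 CPM in homozygous and 38.23, 37.93, 40.11 and 40.19 CPM in heterozygous replicates 1 to 4. Its groups overlapped through the library labelled homozygous replicate 1, and its log2 fold change was 0.17 with 8 libraries and 0.21 with 7 (adjusted p = 0.257 and 0.142). Mrpl30 (0.17 with 8 libraries and 0.16 with 7) and Mrpl20 (0.13 and 0.14) did not pass either. On the TPM scale the values of Mrpl10, Mrpl30 and Mrpl20 were below 0 in both fits, at -0.01 to -0.08, and those of Mrpl11 were 0.04 and 0.05.

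Of the large subunit proteins that mitochondria acquired, Mrpl52 had the highest positive fold change of the family. It had 6.268, 7.666, 8.985 and 7.796 CPM in homozygous and 5.985, 5.951, 6.192 and 5.681 CPM in heterozygous replicates 1 to 4, with no overlap between the groups. The log2 fold change was 0.36 (SE 0.119) with 8 libraries and 0.45 (SE 0.109) with 7, with edgeR adjusted p of 0.184 and 0.0749, so it did not pass. It stayed positive on log2(TPM + 1), at 0.18 with 8 libraries and 0.21 with 7. Mrpl41 had log2 fold changes of 0.18 and 0.23 in the 2 fits on the CPM scale, and -0.02 and -0.003 on the TPM scale.

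In the small subunit, Mrps34 had log2 fold changes of 0.19 with 8 libraries and 0.25 with 7, and Mrps26 of 0.19 and 0.22, none of which passed (edgeR adjusted p from 0.157 to 0.294). Mrps35 had the most negative value after Mrpl55, with 17.94, 15.70, 19.14 and 17.35 CPM in homozygous and 21.37, 17.19, 19.26 and 18.85 CPM in heterozygous replicates 1 to 4. These groups overlapped, and the log2 fold change was -0.13 with 8 libraries and -0.14 with 7 (adjusted p = 0.471 and 0.466). The other members with small p on the negative side were Mrpl18 (-0.11 and -0.10), Mrpl35 (-0.09 and -0.11) and Mrpl9 (-0.06 and -0.09), all large subunit genes, with 8 and then 7 libraries. None of them passed edgeR, while limma on log2(TPM + 1) called Mrpl18 and Mrpl9 lower with 7 libraries, as given above. Mrps36 had a log2 fold change of -0.01 with 8 libraries.

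The members were also split by the subunit that their symbol names and by their symbol number, neither of which settles the place of a protein. With 8 libraries the median log2 fold change was 0.067 over the 47 large subunit genes other than Mrpl55 and 0.104 over the 29 small subunit genes, and with 7 libraries 0.092 and 0.128. The 44 low-numbered members stood at 0.090 and the 32 high-numbered ones at 0.096 with 8 libraries, and at 0.104 and 0.115 with 7. On log2(TPM + 1) each of these medians was negative. No difference between these subgroups was tested. The 6 core ribosomal proteins with other names gave medians of 0.087 with 8 libraries and 0.100 with 7, whereas on log2(TPM + 1) all 6 were negative in both fits, with medians of -0.084 and -0.114. On the CPM scale Ict1, a peptide release factor built into the large subunit, had 0.15 with 8 libraries and 0.18 with 7, and Ptcd3, a small subunit protein, had -0.12 with 8 libraries.

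**Figure D4:**
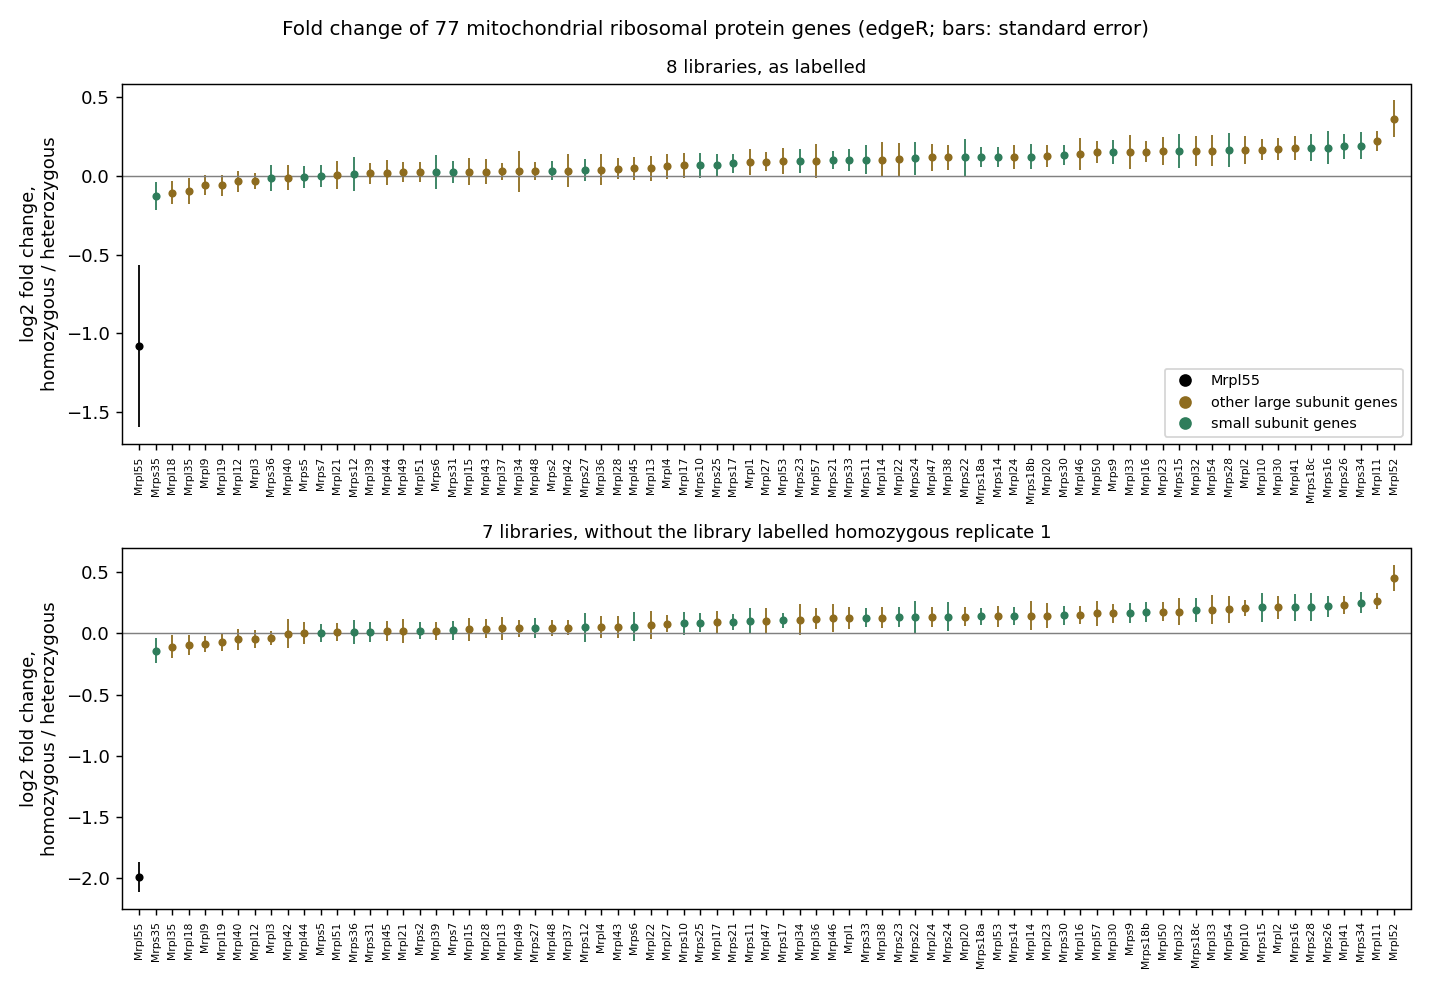
Log2 fold change of each of the 77 genes, homozygous over heterozygous, with its standard error as a bar, sorted by value for the 8 libraries as labelled (upper panel) and the 7 without the library labelled homozygous replicate 1 (lower panel). Mrpl55 stands at -1.08 and -1.99, and the other 76 lie between -0.13 and 0.36 in the upper and between -0.14 and 0.45 in the lower panel; on log2(TPM + 1) most of the 76 are below 0.

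Mrpl55 lies on the forward strand of chromosome 11, at chr11:59202486-59206134 (GRCm38, GENCODE M21), and is transcribed towards Arf1, which lies on the reverse strand at chr11:59211412-59228270. Their annotated 3′ ends are 5277 bases apart and their starts 25784 bases. Between them, on the forward strand, lies 2310033P09Rik at chr11:59208321-59210738, a protein-coding gene. On the other side, 2610507I01Rik (chr11:59199836-59202385), a non-coding transcript on the reverse strand, starts 100 bases from the start of Mrpl55 and runs away from it.

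The genes around Arf1 did not all differ alike between the groups, and a dependence on position or strand was not tested. Of 14 annotated genes wholly within 200 kb of Arf1 or Mrpl55, 8 were tested, and with 7 libraries edgeR called 3 of them lower: Arf1, Mrpl55 and 2310033P09Rik. The level of 2310033P09Rik was 7.678, 2.679, 2.458 and 2.838 CPM in homozygous and 7.454, 7.480, 7.945 and 6.729 CPM in heterozygous replicates 1 to 4. As for Mrpl55, homozygous replicates 2 to 4 lay below all other libraries, at 35.91% of the heterozygous mean (log2 fold change -1.47, SE 0.128, adjusted p = 0.00208). Arf1 itself stood at 9.056% (log2 fold change -3.46, SE 0.213, adjusted p = 0.000796). The library left out was chosen by its Arf1 level, with earlier results of these data known. It also held 14.44 CPM of Mrpl55 and 7.678 CPM of 2310033P09Rik, both within the heterozygous range. None of the 3 calls with 7 libraries is therefore independent of the exclusion. With the 8 libraries as labelled none of the 3 passed, with log2 fold changes of -1.67 for Arf1, -1.08 for Mrpl55 and -0.90 for 2310033P09Rik.

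The divergent neighbour 2610507I01Rik averaged 3.407 ± 0.430 CPM in homozygous replicates 2 to 4 (SD, n = 3) and 3.358 ± 0.458 CPM in heterozygous libraries (SD, n = 4), a log2 fold change of 0.02 (SE 0.166, edgeR adjusted p = 0.965). Guk1, a guanylate kinase (0.20, adjusted p = 0.158), Iba57, a mitochondrial iron-sulphur cluster protein (0.05, adjusted p = 0.846), and Wnt9a, a secreted ligand (0.03, adjusted p = 0.942), did not pass with 7 libraries. The other 9 members on chromosome 11, of which Mrpl22 at chr11:58171661-58179565 is the nearest, had log2 fold changes of -0.05 (Mrpl12) to 0.21 (Mrpl10) with 7 libraries and a median of 0.081.

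**Figure D5:**
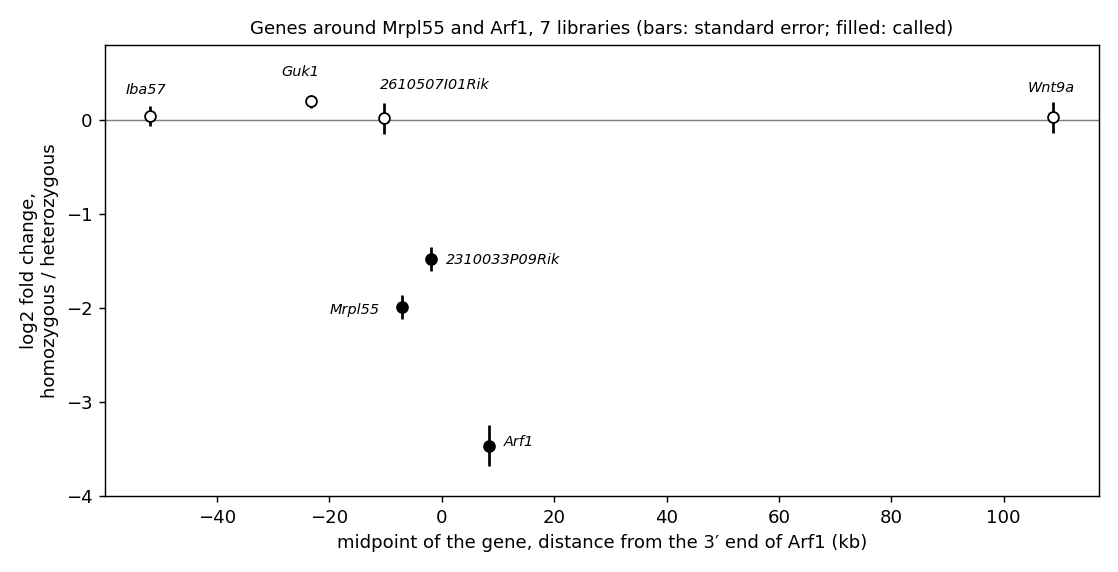
Log2 fold change, homozygous over heterozygous, of 7 tested genes around Arf1 with 7 libraries, against the distance in kb of each gene's midpoint from the 3′ end of Arf1; bars are standard errors and filled points passed edgeR at an adjusted p of 0.05. Arf1 (-3.46), Mrpl55 (-1.99) and 2310033P09Rik (-1.47) are filled, and the other 4 lie between 0.02 and 0.20. The library left out was chosen by its Arf1 level.

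The gene whose profile over the 8 libraries was most like that of Mrpl55 was this same neighbour. By the root mean square difference of log2 CPM, each gene centred on its own mean, 2310033P09Rik differed from Mrpl55 by 0.281 log2 units and was the closest of 14370 candidate genes. A230001M10Rik (0.455), Ighm, the heavy chain of immunoglobulin M (0.473), Ecscr, an endothelial surface protein (0.477), and Serpinb1a, a protease inhibitor of neutrophils (0.485), came next, and none of these lies on chromosome 11. Arf1, with its deeper fall, stood at place 256 (0.754). The nearest of the other 76 members was Mrpl1, at 1.046 log2 units.

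The region just before the start of Mrpl55 is shared with the divergent transcript, and is shown with the same stretch of Mrpl52, the member with the highest positive fold change, and of Mrpl30, among the 5 highest in TPM. Each is the 250 bases before the annotated start on the forward strand, from RefSeq on GRCm38.p6: chr11:59202236-59202485 for Mrpl55, chr14:54426659-54426908 for Mrpl52 and chr1:37890227-37890476 for Mrpl30. Capitals mark matches to GGGCGG, a core letter string of SP1 (3 in Mrpl55, read as CCGCCC), to CCGGAAG of ETS factors (1 in Mrpl52, read as CTTCCGG) and to the NRF1 string, which is GCGC, any 2 bases and GCGC again (1 in Mrpl30), searched on both strands.
Mrpl55: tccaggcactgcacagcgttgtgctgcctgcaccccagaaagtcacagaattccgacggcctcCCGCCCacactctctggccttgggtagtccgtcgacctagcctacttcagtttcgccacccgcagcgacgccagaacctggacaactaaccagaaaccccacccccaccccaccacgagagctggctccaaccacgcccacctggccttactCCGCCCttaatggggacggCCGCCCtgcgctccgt
Mrpl52: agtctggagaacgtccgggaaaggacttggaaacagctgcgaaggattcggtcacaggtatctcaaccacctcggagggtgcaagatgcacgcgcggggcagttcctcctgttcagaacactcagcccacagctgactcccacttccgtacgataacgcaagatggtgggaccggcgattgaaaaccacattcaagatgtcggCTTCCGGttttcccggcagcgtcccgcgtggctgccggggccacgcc
Mrpl30: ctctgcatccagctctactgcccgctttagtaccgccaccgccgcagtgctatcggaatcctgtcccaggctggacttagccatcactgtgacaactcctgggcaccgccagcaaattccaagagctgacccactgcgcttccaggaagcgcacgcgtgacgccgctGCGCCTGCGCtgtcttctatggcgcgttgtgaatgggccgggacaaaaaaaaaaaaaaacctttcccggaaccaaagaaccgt

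NRF1 and the ETS factor GABP are known to drive nuclear genes for mitochondrial proteins. Their letters were not in the Mrpl55 window, nor in most windows of the members, so the Mrpl52 and Mrpl30 windows are not typical in this. Of the 77 members, 68 matched a RefSeq promoter, in 74 windows, each searched over the 250 bases before the start only. A chromosome that holds no member was left out of all sets of windows. The NRF1 string occurred in 13.5% of the members' windows, against 9.22% of those of tested genes and 4.98% of all windows. The ETS string occurred in 23.0% of them, against 11.5% and 6.91%. AAGATGGCG of YY1 was found in 2.7% of the members' windows (1.03% and 0.606% in the other sets), CCAAT in 37.8% (34.6% and 33.8%) and GGGCGG in 50.0% (54.7% and 32.7%). The median GC content was 58.4% over the members' windows and 59.6% over those of tested genes. These are matches of letters, and no binding was measured.

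The other nuclear genes of mitochondrial gene expression gave no edgeR call in either fit. On log2(TPM + 1), where limma called 12.7% of all tested genes lower with 7 libraries, some were called lower, as given for each list. At a raw edgeR p under 0.05 the background was 7.87% higher and 8.9% lower with 8 libraries, and 9.51% higher and 9.94% lower with 7. Of the 15 translation factors 1 was higher and 1 lower at a raw p under 0.05 in each fit, DESeq2 and limma-voom called 0 of them, and their median log2 fold change was -0.104 with 8 libraries and -0.086 with 7. Their medians on log2(TPM + 1) were -0.255 and -0.262, beside -0.144 and -0.175 for all tested genes, and limma called 5 of the 15 lower with 7 libraries. Gfm1, the elongation factor that moves the ribosome along, averaged 42.02 ± 2.73 CPM in homozygous and 48.00 ± 3.25 CPM in heterozygous libraries (SD, n = 4 each), a log2 fold change of -0.19 (edgeR adjusted p = 0.216). Slirp, an RNA-binding protein that stabilises mitochondrial messengers, averaged 27.17 ± 2.38 CPM in homozygous and 23.76 ± 1.09 CPM in heterozygous libraries (SD, n = 4 each), a log2 fold change of 0.19 (adjusted p = 0.244). Neither call changed with 7 libraries (adjusted p = 0.133 and 0.136).

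Of the 23 assembly factors listed, 20 were tested, with medians of 0.004 with 8 libraries and 0.009 with 7. At a raw p under 0.05, 1 of the 20 was higher with 8 libraries and 2 with 7, close to the background, and DESeq2 and limma-voom called 0. The medians on log2(TPM + 1) were -0.138 and -0.205, and limma called 0 of the 20 with 7 libraries. Of 11 genes for mitochondrial transcription and DNA upkeep, 10 were tested, with medians of 0.094 and 0.096 and 1 higher at a raw p under 0.05 in each fit. The direction of the median turned on log2(TPM + 1), with values of -0.044 and -0.093 and 1 of the 10 called lower with 7 libraries. The gene at a raw p under 0.05 was Mterf2, a factor of mitochondrial transcription, which DESeq2 called with 8 libraries and not with 7. Mterf2 had 9.564 to 10.21 CPM in homozygous and 7.343 to 8.311 CPM in heterozygous libraries (log2 fold change 0.34, edgeR adjusted p = 0.135 with 8 libraries and 0.112 with 7). Its groups did not overlap. Polg, next by p in this list, had a log2 fold change of -0.149 with 8 libraries and -0.163 with 7 (edgeR adjusted p = 0.314 and 0.297). The 17 aminoacyl-tRNA synthetases, which load the transfer RNAs of the mitochondrion, gave medians of 0.013 with 8 libraries and 0.018 with 7. At a raw p under 0.05, 1 was higher and 1 lower with 8 libraries, and 2 higher and 1 lower with 7, and DESeq2 and limma-voom called 0. The TPM scale gave medians of -0.154 and -0.108, and limma on it called 2 of the 17 lower with 7 libraries. Aars2, of the smallest p in this list, had 16.44 to 18.46 CPM in homozygous and 19.18 to 20.71 CPM in heterozygous libraries. Its log2 fold change was -0.195 with 8 libraries and -0.227 with 7 (edgeR adjusted p = 0.203 and 0.140). Lars2 had 172.8, 283.6, 2821 and 182.5 CPM in homozygous and 180.2, 89.09, 120.3 and 129.8 CPM in heterozygous replicates 1 to 4, with by far the highest value in homozygous replicate 3, the library with the most ribosomal bases. The 17 markers of mitochondrial mass gave medians of 0.004 with 8 libraries and 0.020 with 7, with 1 higher and 2 lower at a raw p under 0.05 with 8 libraries, and 1 higher and 3 lower with 7. The TPM scale gave medians of -0.187 and -0.197, and limma on it called 5 of the 17 lower with 7 libraries. Tomm20, an import receptor, had a log2 fold change of 0.21 with 8 libraries (edgeR adjusted p = 0.154) and was called by DESeq2 in both fits, and Hspd1, a chaperone, had -0.18 (edgeR adjusted p = 0.249).

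The 15 messenger and ribosomal RNAs of mitochondrial DNA, the templates and the RNA core of this ribosome, were positive in all 15 cases in both fits, with medians of 0.486 with 8 libraries and 0.627 with 7. With 8 libraries edgeR and limma-voom called 0 of the 15, DESeq2 called 9 higher (its background was 1.64%), and 14 were higher at a raw edgeR p under 0.05, where the background was 7.87%. With 7 libraries edgeR called 6 higher against its background of 0.55%, limma-voom 4 against 0.332% and DESeq2 14 against 2.6%. The 6 were mt-Nd1, mt-Nd2, mt-Nd3, mt-Nd4, mt-Nd4l and mt-Cytb. The level of mt-Nd4l, a subunit of complex I, was 313.3, 422.2, 455.6 and 416.5 CPM in homozygous and 302.9, 260.3, 267.0 and 263.9 CPM in heterozygous replicates 1 to 4 (log2 fold change 0.66, adjusted p = 0.00952 with 7 libraries). On log2(TPM + 1) the 15 were again all positive, with medians of 0.279 and 0.388.

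The cytosolic ribosomal proteins, 82 tested of 84 listed, stood between the mitochondrial members and the mitochondrial RNAs. Their median log2 fold change was 0.238 with 8 libraries and 0.282 with 7, beside 0.093 and 0.106 for the 76 mitochondrial members, with 81 of 82 positive in both fits. With 7 libraries edgeR called 5 of the 82 higher, Rps14, Rps15, Rps20, Rps27 and Rpl39, against a background of 0.55%. Limma-voom called 2 (background 0.332%) and DESeq2 48 (2.6%). With 8 libraries edgeR and limma-voom called 0, DESeq2 called 25 higher (background 1.64%), and 69 were higher at a raw edgeR p under 0.05 (background 7.87%). On log2(TPM + 1) their medians were 0.061 and 0.068, with 73 and 65 of 82 positive. The differences between these lists were not tested.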

How the data were processed

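Spinal cord RNA was sequenced in 8 libraries, 4 labelled homozygous and 4 labelled heterozygous at Arf1, each taken as a separate mouse. The submitters' processing notes name cutadapt, STAR, RSEM and Picard and the mouse build mm10 (GRCm38), without versions. The authors deposited estimated (expected) counts per gene in a table of the whole series, and expected counts and TPM in a table per library, per the file headers as RSEM writes them. RSEM divides reads that fit several genes or transcripts by probability, so reads shared with a pseudogene copy of a member could be counted in either. The authors' deposited gene table gives log2 fold changes and p-values with false discovery rates over 6 libraries. The library sheet deposited by the authors gives RNA integrity, 8 in homozygous replicate 4 and 9 elsewhere, and Picard measures such as the share of reads on the correct strand, 99.44% to 99.58%.

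Expected counts were rounded and tested with edgeR 4.0.16 (R 4.3.3): TMM scaling, filterByExpr by group, the robust quasi-likelihood test and Benjamini-Hochberg adjustment over all tested genes, with a threshold of 0.05. The fit was made with the 8 libraries as labelled and with the 7 without the library labelled homozygous replicate 1. CPM values are TMM-scaled over the 8 libraries, and levels are compared between genes in TPM only. Standard errors are the fold change divided by the square root of F. DESeq2 1.42.0, limma 3.58.1 (voom, and log2(TPM + 1) with trend), median-of-ratios scaling, other filters, the log2 CPM of Xist as a covariate, each library left out and the authors' 6 libraries were the alternatives. The scripts were tested on simulated counts. No batch labels were used. A neighbour of Arf1 and a marker list are not reported here.

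The members, the gene lists and the exclusion were chosen with earlier results of these data known. Described singly were Mrpl55, members past the threshold, the 5 smallest p in each direction and the 5 highest and lowest in TPM. From other lists the genes called were named, and otherwise only some of those among the 2 of smallest p. Genes named in a count of calls by another tool, and those whose groups did not overlap, were added after their values were seen. Positions came from GENCODE M21 on GRCm38, and promoter sequences from RefSeq on GRCm38.p6. The quality measures and counts limit what can be seen: the lowest member count in a library was 77.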

Additional observations from a re-analysis of the deposited data

Results flagged for a closer look

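Among the 20 members described singly, 40 groups of 4 libraries were looked at for a library whose gap to the next exceeds the 95% critical value of Dixon's ratio, which chance alone passes in about 1 of 20 groups. There were 3. For Mrpl55, the library labelled homozygous replicate 1 had 14.44 CPM, against 2.866 to 3.523 CPM in homozygous replicates 2 to 4 (ratio 0.943). For Mrpl35, homozygous replicate 2 had 21.25 CPM, against 25.23 to 25.87 CPM in the other 3 homozygous libraries (0.861). For Mrpl20, homozygous replicate 3 had 60.12 CPM, against 55.97 to 56.66 CPM in the other 3 (0.833).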

How the results depend on the processing

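Mrpl55 passed edgeR with 7 libraries and under every alternative run there, with log2 fold changes of -2.08 to -1.90 and adjusted p of 1.28e-36 to 0.00678. Leaving out each library moved it from -2.05 to -1.90, with 1 member called lower each time. With 8 libraries it passed, of the alternatives run, only without the library labelled homozygous replicate 1 (-1.99, the 1 member then called lower, against 0 otherwise), and the other libraries left out gave values up to -0.85. The median of the other 76 members ranged from 0.051 to 0.111 with 1 library left out of 8 and from 0.062 to 0.138 with 1 left out of 7. On log2(TPM + 1) it was -0.087 (8 libraries) and -0.109 (7 libraries), and 4 members were called lower with 7 libraries. DESeq2 called 2 members higher with 7 libraries. Among the members described singly, log2(TPM + 1) turned the direction, given for 8 and then 7 libraries, of Mrpl1 (-0.064, -0.075), Mrpl10 (-0.012, -0.012), Mrpl20 (-0.03, -0.069), Mrpl30 (-0.028, -0.083), Mrpl39 (-0.119, -0.161), Mrpl41 (-0.016, -0.003), Mrpl57 (-0.073, -0.048), Mrps21 (-0.082, -0.146), Mrps22 (-0.043, -0.07) and Mrps33 (-0.082, -0.094). With each library left out, Mrpl39 ranged from -0.02 to 0.037 (8 libraries) and from -0.016 to 0.046 (7 libraries), below 0 in both fits without heterozygous replicate 4. The cause was not tested. In all, 114 values of the main comparisons, counts of calls among them, stayed the same in direction and side, 5 moved and 1 passed where the main fit did not. Of the values of the members described singly, 544 stayed the same, 22 turned direction and 4 passed where the main fit did not. These counts leave out the members not described singly. Of all 76 members other than Mrpl55, 65 were positive on the CPM scale and 69 negative on log2(TPM + 1) with 8 libraries. With 7 libraries these numbers were 67 and 70, so most of the 76 turned direction on that scale. The fit of 8 libraries without homozygous replicate 1 repeats the main fit of 7. No paired analysis was possible because the titles carry a number for each library that no other library shares, and the replicate numbers follow accession order only. Low counts limit Mrpl55, at 77 to 108 in homozygous replicates 2 to 4.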
